A study of Mus musculus with 30 samples.

Results

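The 10 genes described here encode cytokines and chemokines that are released early when tissue is damaged: Cxcl1, Cxcl2, Ccl2, Ccl7, Il1a, Il1b, Tnf, Il6, Lif and Il11. They were chosen by name, and all 10 were found by Ensembl identifier among the 57133 genes of each count table. Both tables count poly-A RNA from whole mouse kidney, 30 libraries in all, of 2 genotypes: wild type (WT) and the one labelled Gsta2-H2BeGFP (TG). The design text of the series asks how transcription differs between them early after ischemia-reperfusion injury (IRI), a stop and return of renal blood flow.

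Each genotype was sampled in unoperated males (n = 3), unoperated females (n = 3), males with nephrectomy alone (NX, surgical loss of a kidney, n = 3) and males with nephrectomy plus IRI at 4 hours (n = 6). The time at which the NX kidneys were taken, the age of the mice and the promoter of the transgene are not stated in the labels. Whether the libraries of a group are separate animals is not stated, and a p-value here reflects library-to-library spread that may be partly technical. Libraries are named by group and by the replicate number in their title, with 0 for the library whose title carries none.

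Chemokines are small secreted proteins that draw leukocytes along a gradient. Cxcl1 and Cxcl2 act on the receptor Cxcr2 of neutrophils, and Ccl2 and Ccl7 act on the receptor Ccr2 of monocytes. Il1a, Il1b and Tnf are the classical alarm cytokines that switch on NF-kappa B in the cells that receive them, and Il6, Lif and Il11 form a family of cytokines that share the signalling subunit gp130, encoded by Il6st. In the injured kidney these proteins can come from tubule cells, endothelium and blood-borne or resident leukocytes, which whole-tissue RNA does not separate.

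In GRCm39, the build of the counts, the gene bodies lie on 5 chromosomes. On the plus strand of chromosome 5 stand Cxcl1 from 91039100 to 91040974, Cxcl2 from 91051730 to 91053797 and Il6 from 30218112 to 30224979. On the plus strand of chromosome 11 stand Ccl2 from 81926397 to 81928279, Ccl7 from 81936538 to 81938351 and Lif from 4207557 to 4222514. The minus strand holds Il1a from 129141530 to 129151892 and Il1b from 129206490 to 129213059 on chromosome 2, Tnf from 35418357 to 35420983 on chromosome 17 and Il11 from 4775372 to 4785858 on chromosome 7. Counts are over whole genes, so isoforms were not separated.

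The promoter windows of the members are shown because several of these genes, which were near 0 without injury, hold the same short motifs. RefSeq promoters (build GRCm38.p6, 250 bases before to 50 after each start site) were at hand for 8 of the 10 members, not for Ccl2 and Ccl7. The windows below are 110 bases long and lie upstream of the start site, at chr5:90891135-90891244 (plus strand) for Cxcl1, chr5:90903789-90903898 (plus) for Cxcl2, chr5:30013004-30013113 (plus) for Il6, chr7:4778142-4778251 (minus) for Il11, chr11:4257318-4257427 (plus) for Lif and chr2:129309973-129310082 (minus) for Il1a. All end at base -1 except that of Lif, which runs from base -250 to -141. Capitals mark the kappa B consensus in the windows of Cxcl1, Cxcl2 (overlapping matches on both strands) and Il6, and the AP-1 type motif TGANTCA in those of Il11, Lif and Il1a.
Cxcl1: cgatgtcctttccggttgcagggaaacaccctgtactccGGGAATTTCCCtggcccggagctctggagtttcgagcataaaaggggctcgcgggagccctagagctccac
Cxcl2: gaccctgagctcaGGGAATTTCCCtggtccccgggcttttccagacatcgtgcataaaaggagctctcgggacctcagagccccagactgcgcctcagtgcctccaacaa
Il6: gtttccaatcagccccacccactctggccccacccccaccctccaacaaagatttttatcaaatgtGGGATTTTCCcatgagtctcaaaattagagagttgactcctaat
Il11: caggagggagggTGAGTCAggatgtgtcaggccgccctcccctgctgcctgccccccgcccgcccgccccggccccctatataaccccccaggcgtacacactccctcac
Lif: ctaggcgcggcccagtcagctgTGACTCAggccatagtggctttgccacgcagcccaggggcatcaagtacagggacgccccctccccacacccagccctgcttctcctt
Il1a: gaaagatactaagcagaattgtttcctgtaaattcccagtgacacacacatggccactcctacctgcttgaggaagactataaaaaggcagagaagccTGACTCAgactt

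On both strands of the full windows, 3 of the 8 members held the kappa B consensus, the NF-kappa B site, which 4.51% of 32851 promoters held. Cxcl1 and Cxcl2 held the same letters, GGGAATTTCC, starting 71 and 97 bases before the start site. That exact stretch, which is contained in the consensus, occurred in 0.0883% of all promoters. Its letters were read from the Cxcl1 promoter, so Cxcl1 had to hold it and no support is drawn from this share. Il6 held its consensus match 44 bases before the start. The motif TGANTCA lay in the windows of Il6, Il1a, Lif and Il11 and in 7.81% of all promoters, and TATAAA lay in those of Il1a, Il1b and Tnf and in 13.6% of all promoters. These matches describe letters, and binding was not measured.

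The 18 NX and IRI libraries held 59574069 to 91354407 counts and the 12 libraries without surgery 49040915 to 66446450. Both tables were counted separately, so levels without surgery are given beside the others with no test across tables. Summed markers of proximal tubule ran from 9090 to 17300 CPM (counts divided by effective library size) over the 8 groups. EGFP, the added reporter, was counted in every TG library and at 0 in every WT library except the library labelled WT IRI replicate 1, which held 206 counts. That is 2.59 CPM, within the range of 1.19 to 6.34 CPM in the TG IRI libraries, so the genotype of this library is uncertain. The injury calls of the members in WT, their genotype differences after IRI and the correlations named are therefore also given without it. The library WT NX replicate 0 stood apart in fat genes, with summed adipocyte markers of 665 CPM against 14.8 to 88.9 CPM in the other 17 libraries of its table.

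Without injury the members were scarce. Over the 12 libraries without surgery the median was 0.567 CPM for Cxcl1, 0.519 for Il1b, 0.459 for Lif, 0.393 for Ccl2, 0.185 for Il11, 0.148 for Il1a, 0.113 for Ccl7 and 0.0646 for Tnf. Cxcl2 was at 0 in 8 of these 12 libraries and Il6 in 10 of 12. After NX both Cxcl2 and Il6 were at 0 in all 6 libraries, and Ccl7 was at 0 in 5 of 6. A count of 0 in a group of 3 NX libraries allows up to 3 counts over the group, and intervals of this kind cover counting error only.

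**Figure D1:**
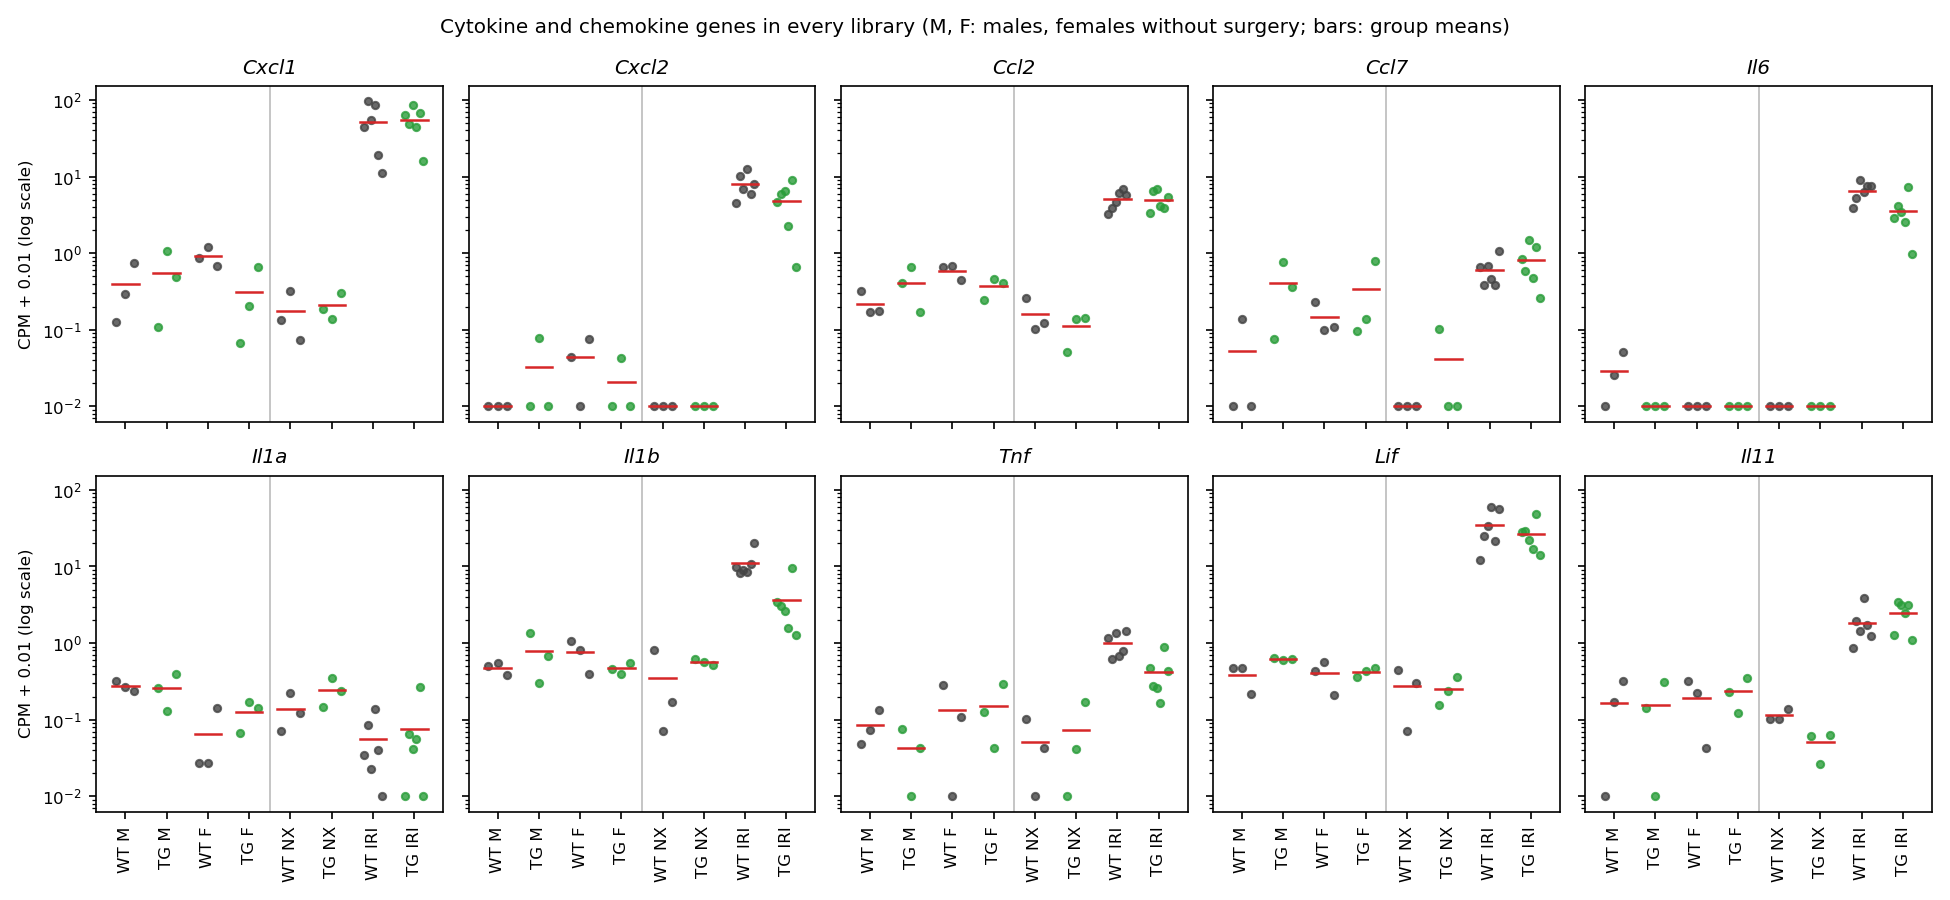
Level of each of the 10 genes in every library, in CPM plus 0.01 on a log scale; each point is a library, red bars are group means, and the grey line parts the separately counted table without surgery (left) from the NX and IRI libraries (right). After IRI every gene but Il1a has a higher group mean than after NX in both genotypes, with overlapping points for Tnf in TG, and Cxcl2 and Il6 sit at the bottom of the scale in all 6 NX libraries.

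The question of the injury comparison was how far each gene moved from NX to 4 hours after IRI. In both genotypes 9 of the 10 genes were higher after IRI by the quasi-likelihood test of edgeR (Benjamini-Hochberg adjusted p under 0.05 over 19264 genes), and Il1a did not pass. Of all genes tested, 16.8% were called higher in WT and 16.4% in TG. No support is drawn from these counts, because 6 of the 10 members, Cxcl2, Ccl2, Ccl7, Il6, Tnf and Il11, reached the count filter only through the IRI libraries and so had to differ; their p-values are given on that condition. In WT all libraries after IRI lay above all NX libraries for the same 9 genes, as for 14.2% of all genes, and in TG for 8, as for 17.3% of all genes. The other members, Cxcl1, Il1a, Il1b and Lif, reached the filter in at least 3 NX libraries. Il1a reached it in 3 NX libraries and in only 1 IRI library, so it entered the test through NX. Any call of lower for Il1a is given on that condition.

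Cxcl1, the neutrophil chemokine of chromosome 5, reached the highest level of the set. Its NX libraries held 0.124, 0.306 and 0.0644 CPM in WT and 0.177, 0.128 and 0.293 CPM in TG. After IRI it ran from 11.1 through a median of 49.5 to 96.1 CPM in WT and from 15.9 through 55.9 to 86.1 CPM in TG. The lowest injured library was far above the highest uninjured one. Cxcl1 rose 310-fold in WT (log2 fold change 8.27 ± 0.90 SE, edgeR adjusted p = 1.11e-06) and 268-fold in TG (8.07 ± 0.87, adjusted p = 9.56e-07). Without WT NX replicate 1, the highest of its group, the WT change was 9.09 on the log2 scale.

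Cxcl2, its close paralog 10.8 kb away, had no count in any NX library. Injured libraries ran from 4.5 through 7.45 to 12.4 CPM in WT and from 0.64 through 5.27 to 8.96 CPM in TG. Set against 3 counts in the whole NX group, Cxcl2 was at least 510-fold higher in WT and at least 376-fold higher in TG. The lowest TG library, replicate 5, stood at 0.64 CPM, still above every uninjured library of the series. Transcripts of Cxcl2 and its neighbour Cxcl3 share an identical stretch of 157 bases, longer than the 150-base reads, so some of their reads cannot be told apart. Cxcl1 and Cxcl2 share no stretch longer than 23 bases. Cxcl3 was itself at 0 after NX and averaged 0.395 CPM in WT and 0.128 CPM in TG after IRI, a small part of the level of Cxcl2.

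Ccl2, the main monocyte chemokine, varied little between injured libraries. After NX its libraries held 0.247, 0.0917 and 0.113 CPM in WT and 0.0415, 0.128 and 0.133 CPM in TG. Injured libraries ran from 3.27 through 5.2 to 6.85 CPM in WT and from 3.32 through 4.73 to 6.95 CPM in TG, a narrow span over the 12 libraries. Ccl2 rose 33.3-fold in WT (log2 fold change 5.06 ± 0.43, edgeR adjusted p = 3.72e-08) and 50.6-fold in TG (5.66 ± 0.44, adjusted p = 1.74e-08).

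Ccl7, 8.26 kb from Ccl2 on chromosome 11 and a ligand of the same receptor, stayed low. It ran from 0.369 through 0.554 to 1.07 CPM in WT and from 0.25 through 0.704 to 1.47 CPM in TG after IRI. Of the NX libraries, TG replicate 0 held 9 counts (0.0935 CPM) and the other 5 held none. Ccl7 was at least 38.5-fold higher in WT and rose 21.7-fold in TG (log2 fold change 4.44 ± 0.88, edgeR adjusted p = 0.00098), a fold that rests on that single NX library. In the libraries without surgery Ccl7 reached 0.784 CPM, so its injured and uninjured levels overlapped across the tables.

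Il1b, the secreted interleukin 1 that is cut to its active form by caspase-1, rose in both genotypes. Its NX libraries held 0.804, 0.0611 and 0.161 CPM in WT and 0.602, 0.56 and 0.506 CPM in TG. After IRI it ran from 8.29 through 9.45 to 20.2 CPM in WT and from 1.28 through 2.81 to 9.67 CPM in TG. Of the TG libraries, 5 of 6 lay below every WT library, and replicate 4 lay among them. Il1b rose 32.2-fold in WT (log2 fold change 5.01 ± 0.74, edgeR adjusted p = 4.09e-05) and 6.45-fold in TG (2.69 ± 0.65, adjusted p = 0.00364). Without WT NX replicate 0, the library with fat genes and the highest Il1b of its group, the WT change was 6.64 on the log2 scale, and without TG IRI replicate 4 the TG change was 2.09. With each library left out in turn, the WT change ran from 4.54 to 6.64 and the TG change from 2.09 to 2.86.

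Il1a, the interleukin 1 that dying cells can release without processing, was not called. It lies 54.6 kb from Il1b. Its NX libraries held 0.0618, 0.214 and 0.113 CPM in WT and 0.135, 0.336 and 0.227 CPM in TG. After IRI it ran from 0 through 0.0278 to 0.129 CPM in WT and from 0 through 0.0389 to 0.256 CPM in TG, and 3 of 12 injured libraries had no count. The fitted change was -1.48 ± 1.04 in WT (edgeR adjusted p = 0.307) and -1.79 ± 0.99 in TG (adjusted p = 0.193), with NX and IRI overlapping in both. Without TG IRI replicate 4, its highest injured library, Il1a in TG was called lower (log2 fold change -3.00, edgeR adjusted p = 0.0288). This call is conditional, because Il1a reached the count filter through the NX libraries, where its mean was higher. Antisense genes overlap Il1a (Gm14023, up to 19 counts in a library) and Il1b (Il1bos, up to 8 counts). Whether reads were counted by strand is not legible in the headers, so counts this low are uncertain for Il1a.

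Tnf, the cytokine that acts through Tnfrsf1a and Tnfrsf1b, stayed low. Its NX libraries held 0.0927, 0 and 0.0322 CPM in WT and 0, 0.032 and 0.16 CPM in TG. After IRI it ran from 0.603 through 0.956 to 1.41 CPM in WT and from 0.154 through 0.343 to 0.888 CPM in TG. In WT the groups were apart, and in TG the lowest injured library, replicate 3, fell just below the highest NX library. Tnf rose 22.8-fold in WT (log2 fold change 4.51 ± 0.92, edgeR adjusted p = 0.000991) and 6.38-fold in TG (2.67 ± 0.83, adjusted p = 0.0203). The TG change lost its call without TG NX replicate 0 (2.04, adjusted p = 0.0797) or replicate 1 (2.40, adjusted p = 0.0886), and was 4.76 without TG NX replicate 2. The WT change was 5.82 without WT NX replicate 0.

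Il6, the founding cytokine of the gp130 family, had no count in any NX library, in any TG library or in any female library without surgery. The injured range was 3.88 through 6.87 to 9.04 CPM in WT and from 0.974 through 3.19 to 7.29 CPM in TG. Against the floor of 3 counts it was at least 421-fold higher in WT and at least 277-fold higher in TG. TG replicate 4 was again the highest of its group and the library labelled WT IRI replicate 2 the highest of all.

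Lif, leukemia inhibitory factor, was next to Cxcl1 in level. Uninjured NX libraries held 0.433, 0.0611 and 0.29 CPM in WT and 0.145, 0.224 and 0.346 CPM in TG. Injured libraries ran from 12.1 through 29.1 to 60.2 CPM in WT and from 14 through 25.4 to 48.3 CPM in TG. No injured library came near an uninjured one. Lif rose 132-fold in WT (log2 fold change 7.04 ± 0.69, edgeR adjusted p = 2.75e-07) and 112-fold in TG (6.81 ± 0.68, adjusted p = 3.79e-07). Without WT NX replicate 0 the WT change was 7.63.

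Il11, a gp130 cytokine linked to stromal and epithelial injury, rose from traces. The NX libraries held 0.0927, 0.0917 and 0.129 CPM in WT and 0.0519, 0.016 and 0.0533 CPM in TG. The injured range was 0.845 through 1.56 to 3.88 CPM in WT and from 1.1 through 2.81 to 3.42 CPM in TG, clear of NX in both. Il11 rose 17.3-fold in WT (log2 fold change 4.11 ± 0.57, edgeR adjusted p = 1.92e-05) and 55.4-fold in TG (5.79 ± 0.63, adjusted p = 1.18e-06). Without the library labelled WT IRI replicate 1, which held EGFP, 9 of 10 members were called higher in WT, with log2 fold changes of 8.01 for Cxcl1, 5.13 for Ccl2, 5.08 for Il1b, 4.62 for Tnf, 7.12 for Lif and 4.09 for Il11.

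Levels of different genes were compared per length, as TPM, which divides counts by the deposited gene length as well as by depth. In WT after IRI Cxcl1 was highest at 74.5 ± 50.5 TPM (SD, n = 6), followed by Lif at 20.7 ± 11.5, Il1b at 15.1 ± 5.15, Ccl2 at 11.6 ± 2.82, Cxcl2 at 10.1 ± 3.89 and Il6 at 7.07 ± 1.90. Il11 (2.33 ± 1.43), Ccl7 (1.96 ± 0.79) and Tnf (1.58 ± 0.55) were lower and Il1a (0.0619 ± 0.0666) lowest. Every neighbouring pair in this order overlapped between libraries except Tnf and Il1a. In TG the order was Cxcl1 (78.9 ± 34.4 TPM), Lif (16.6 ± 7.44), Ccl2 (12 ± 3.56), Cxcl2 (6.33 ± 3.90), Il1b (5.12 ± 4.32), Il6 (3.98 ± 2.32), Il11 (3.18 ± 1.29), Ccl7 (2.72 ± 1.57), Tnf (0.679 ± 0.427) and Il1a (0.0888 ± 0.131), all neighbours overlapping. Il1b ranked 3 in WT and 5 in TG, and the other genes kept their order.

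**Figure D2:**
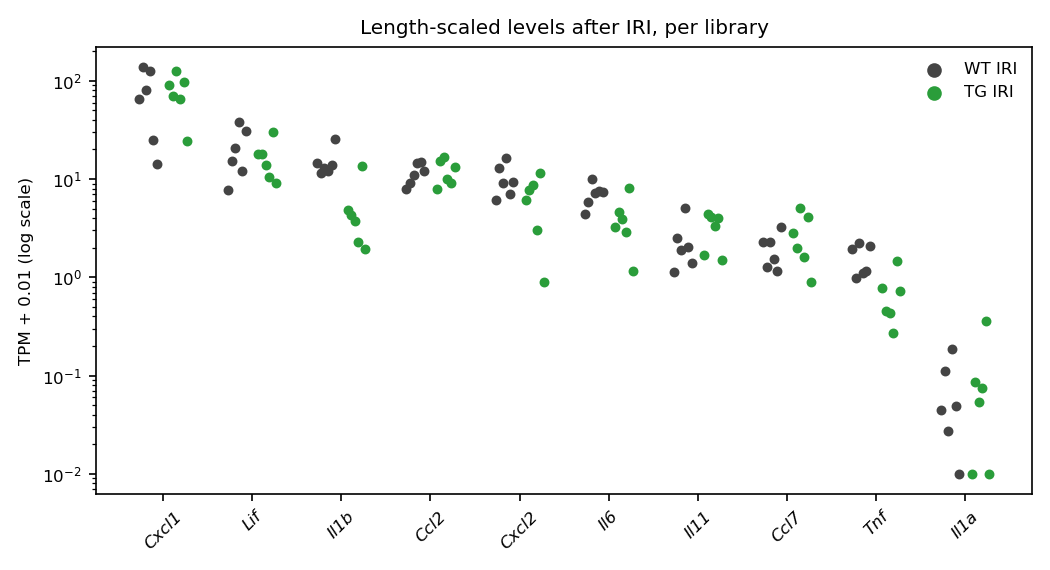
TPM plus 0.01 on a log scale for the 10 genes in each of the 6 WT (grey) and 6 TG (green) libraries after IRI, ordered by the WT mean. Cxcl1 and Lif lead in both genotypes, Il1a is near 0, and the WT and TG points overlap for every gene.

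The comparison named in the design text, TG against WT after IRI, called none of the 9 members that passed the count filter (edgeR, 12 libraries; Il1a was below the filter). Of 17111 genes, edgeR called 12 (0.0701%). DESeq2 called 0 of the 8 members to which it gave an adjusted p, which leaves out Il1b, and 346 of 17016 genes (2.03%). At an unadjusted p under 0.05 there were 3 members, Il1b, Tnf and Il6, all lower in TG, and 14.1% of all genes. The ranges of WT and TG overlapped for all 9. Their median difference was -0.39 on the log2 scale, against -0.01 over all genes.

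Il1b showed the largest difference, averaging 3.60 CPM in TG against 11.1 CPM in WT (log2 difference -1.64 ± 0.42 SE, edgeR adjusted p = 0.155). Without TG IRI replicate 4, which held 9.67 CPM against 1.28 to 3.43 CPM in the other 5, it was called lower in TG (-2.23, adjusted p = 0.0247); over all alternatives the adjusted p ran from 0.0247 to 0.608. Without the library labelled WT IRI replicate 1 the difference was -1.71 (adjusted p = 0.161). Tnf averaged 0.408 CPM against 0.985 CPM (-1.28 ± 0.39, adjusted p = 0.212). Over all alternatives, by edgeR or DESeq2, the adjusted p of Tnf ran from 0.0515 to 0.704. Il6 averaged 3.56 CPM against 6.56 CPM (-0.89 ± 0.35, adjusted p = 0.289). Without the library labelled WT IRI replicate 1 these were -1.39 (adjusted p = 0.188) for Tnf and -0.95 (adjusted p = 0.285) for Il6.

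For the other 6 members the estimates were closer to 0. Cxcl2 differed by -0.73 ± 0.43 (edgeR adjusted p = 0.468) and Lif by -0.39 ± 0.36 (adjusted p = 0.659). Ccl7 differed by 0.40 ± 0.41 (adjusted p = 0.702) and Il11 by 0.40 ± 0.36 (adjusted p = 0.649). Cxcl1 (0.06 ± 0.46) and Ccl2 (-0.04 ± 0.22) changed sign with the libraries kept. Without the library labelled WT IRI replicate 1 they were 0.33 for Cxcl1, -0.10 for Ccl2, -0.65 for Cxcl2, -0.47 for Lif, 0.29 for Ccl7 and 0.42 for Il11, none called. For Ccl2, 2 standard errors either side of the estimate span -0.47 to 0.40, and for Cxcl1 -0.85 to 0.98, so a difference of close to 2-fold in Cxcl1 lies within its interval.

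**Figure D3:**
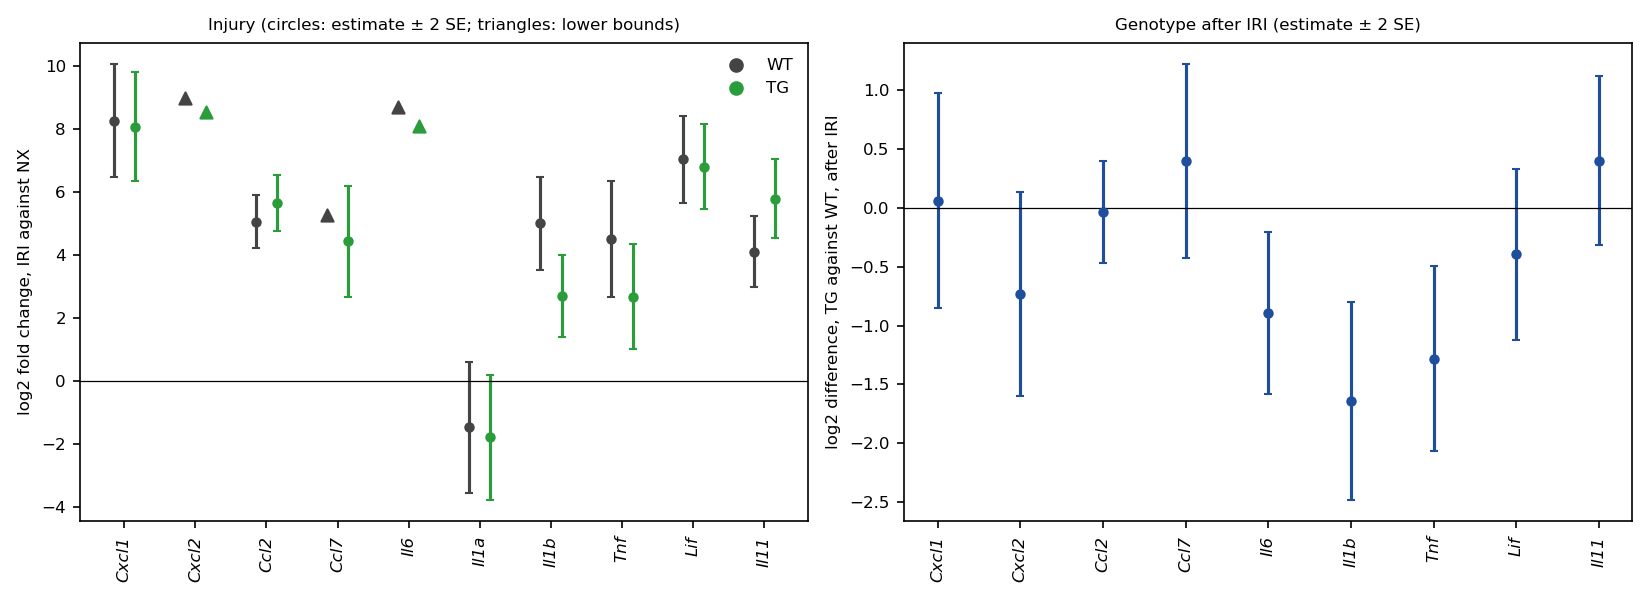
Left, log2 fold change from NX to IRI of the 10 genes in WT (grey) and TG (green), with circles and bars for the estimate ± 2 SE and triangles for lower bounds where the NX group had no count. Right, log2 difference TG against WT after IRI for the 9 genes that passed the count filter; the bars of Il6, Il1b and Tnf lie below 0 although none of the 9 passed the adjusted threshold.

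The difference of the injury response between the genotypes, as an interaction term, was not called for any of the 7 members for which it could be estimated, nor for any of the 19264 genes (0%). Cxcl2, Il6 and Ccl7 have no value here because an NX group was at 0. At an unadjusted p under 0.05 stood 1 member, Il1b, and 9.59% of all genes. The injury change of Il1b was smaller in TG by -2.32 ± 0.87 on the log2 scale (edgeR adjusted p = 0.426). With a library left out this difference ran from -3.95 (without WT NX replicate 0) to -1.85. Il11 differed by 1.68 ± 0.81 (adjusted p = 0.526), Tnf by -1.83 ± 1.19 (adjusted p = 0.657) and Ccl2 by 0.61 ± 0.57 (adjusted p = 0.782). Cxcl1 (-0.21 ± 1.30), Lif (-0.23 ± 0.94) and Il1a (-0.31 ± 1.56) had errors larger than their estimates.

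The summed markers of neutrophils were also higher after IRI than after NX. Of the 10 markers 9 were tested, and all 9 were called higher after IRI in WT (16.8% of all genes) and in TG (16.4%). Only 1 of the 10 passed the count filter in the fit of the NX libraries alone. Most markers were thus tested only because they were high after IRI, and no support is drawn from this count. The summed level of the 10 markers went from 0.397 to 1.27 CPM after NX to 29.2 to 115 CPM in WT and 6.89 to 52.4 CPM in TG after IRI. Ly6g, a defining neutrophil marker, was too low to test: it was at 0 in all 3 WT NX libraries, and after IRI it was still at 0 in 4 of 6 WT and 3 of 6 TG libraries, with a maximum of 0.256 CPM. No neutrophil marker was called between the genotypes after IRI, and their median log2 difference was -1.23. The summed monocyte and macrophage markers stayed between 82.3 and 138 CPM over NX and IRI, with 3 of 12 called higher and 2 lower in WT and 2 higher and 2 lower in TG. Of all 19264 genes, 2723 were called lower in WT and 2509 in TG. The sum hides opposite moves of single markers. From NX to IRI, median Cd14 went from 2.08 to 16 CPM in WT and from 3.16 to 12.1 CPM in TG. Median Cx3cr1 went from 4.51 to 1.23 CPM in WT and from 4.63 to 0.705 CPM in TG. Of 5 red cell markers 5 were called higher after IRI in WT and 4 in TG; their sum was 110 to 1300 CPM in WT and 28.6 to 148 CPM in TG, against 35.6 to 119 and 3.64 to 18.7 CPM after NX. In bulk tissue, more cells of a type and more RNA per cell cannot be told apart.

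Across the 12 IRI libraries, with values centred within genotype, Il1b correlated with the neutrophil marker sum. The library with the highest sum, WT replicate 5 (115 CPM), held the most Il1b, the highest TG library in the sum, replicate 4 (52.4 CPM), held the most Il1b of TG, and TG replicates 3 and 5, lowest in the sum, held the least. Pearson's r was 0.96 (permutation p = 0.00074, adjusted p = 0.033 over 45 pairs) and Spearman's rho 0.80 (permutation p = 0.0064, adjusted p = 0.14). Without the 2 libraries farthest from the overall median of the sum, TG replicates 3 and 5, r was 0.93, and without the 2 farthest from the median of their own genotype, TG replicate 4 and WT replicate 5, it was 0.89. Within TG r was 0.99, and 0.98 without replicate 4. Within WT r was 0.91 but -0.0025 without replicate 5, so in WT the relation rests on that library. Without the library labelled WT IRI replicate 1 the r over both genotypes was 0.96. The part of the neutrophil markers in the lower Il1b of TG was not tested.

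Lif had a lower r with the same sum (r = 0.77, permutation p = 0.0018, adjusted p = 0.04; rho = 0.69, permutation p = 0.028, adjusted p = 0.18; r = 0.69 without TG replicates 3 and 5, 0.62 without TG replicate 4 and WT replicate 5, 0.65 within WT and 0.98 within TG). Ccl2 showed no such relation (r = 0.0051, permutation p = 0.99; rho = 0.086, permutation p = 0.83), nor did Il11 (r = 0.21, permutation p = 0.53; rho = 0.17, permutation p = 0.63). For Cxcl1 r with the sum was -0.027 (permutation p = 0.93, rho = -0.029), at -0.7 within WT and 0.63 within TG. Ccl7 (r = 0.73), Il6 (0.7), Tnf (0.67) and Cxcl2 (0.66) did not pass the adjusted threshold (permutation test, adjusted p 0.082 to 0.14). Among the 36 pairs of members themselves 30 had r above 0. By Pearson's r 2 of these passed the adjusted threshold, and by Spearman's rho none did. Cxcl2 and Lif had r = 0.69 (permutation p = 0.0027, adjusted p = 0.04; rho = 0.83, permutation p = 0.0042, adjusted p = 0.14; r = 0.75 without TG replicates 3 and 5). Cxcl2 and Il6 had r = 0.85 (permutation p = 0.0043, adjusted p = 0.048; rho = 0.51, permutation p = 0.12, adjusted p = 0.33), which fell to 0.48 without TG replicates 3 and 5 and so rests on them. Without the library labelled WT IRI replicate 1, r with the marker sum was 0.77 for Lif, -0.057 for Ccl2 and 0.24 for Il11. It was then 0.064 for Cxcl1, 0.72 for Ccl7, 0.7 for Il6, 0.65 for Tnf and 0.71 for Cxcl2. Between members, r for Cxcl2 was then 0.72 with Lif and 0.88 with Il6.

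**Figure D4:**
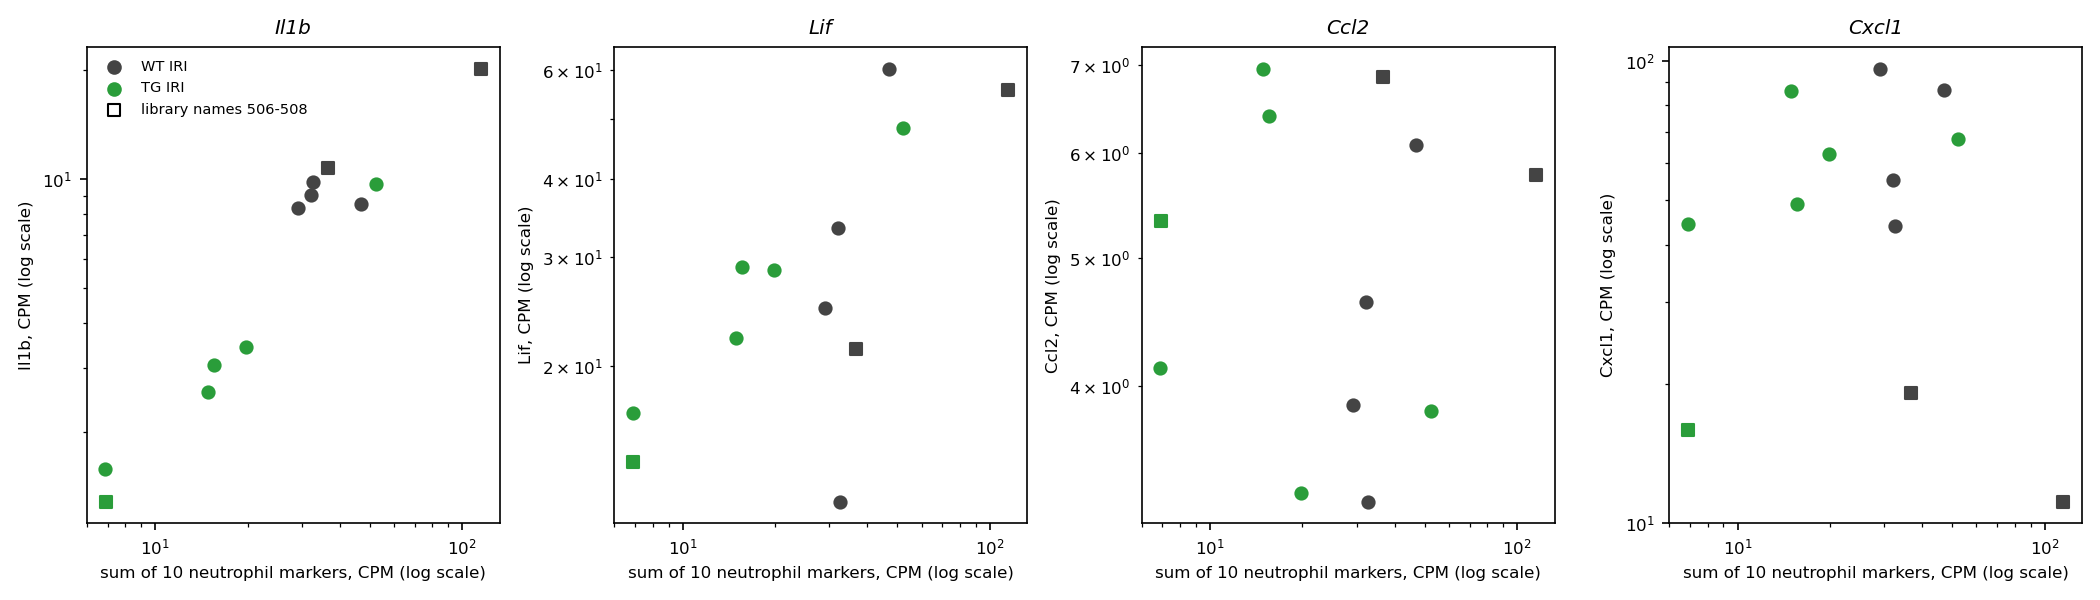
Il1b, Lif, Ccl2 and Cxcl1 in CPM against the summed level of 10 neutrophil markers in CPM, both on log scales, for the 6 WT (grey) and 6 TG (green) libraries after IRI; squares are the libraries whose names run from 506 to 508. Il1b is higher where the marker sum is higher in TG, in WT only replicate 5 (115 CPM in the sum) stands out, and the 3 squares lie lowest in Cxcl1.

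Cxcl1 split the injured libraries by their deposited library names. The 3 IRI libraries named 506 to 508 (TG replicate 5 and WT replicates 4 and 5) held 11.1 to 19.1 CPM of Cxcl1, and the 9 named 465 to 487 held 43.9 to 96.1 CPM. This split was noticed in the data and has no test. Of all 17111 genes 1.62% were lower in all 3 than in all 9, and the other 9 members overlapped between the sets. Among these 3 libraries, TG replicate 5 ranked 12 of 12 in Cxcl2, Ccl7, Il6 and Il1b, while WT replicate 5 held the most Il1b and Tnf of the 12 and WT replicate 4 held the most Ccl2 of WT. What the library names stand for is not stated in the labels. The NX libraries are named 437, 440 and 442 in WT and 438, 441 and 478 in TG. In WT every NX name thus comes before every IRI name, and name order and injury cannot be told apart there. Without these 3 libraries Cxcl1 differed between the genotypes by -0.18 on the log2 scale in place of 0.06, and Il1b by -1.13 (edgeR adjusted p = 0.608) in place of -1.64.

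Among the 8 genes whose pattern over the 12 IRI libraries was most like the mean of the 10 members were Smox (r = 0.913), Trpm2 (0.874), Lilrb4a (0.862), Clec4e (0.849), Cxcr2 (0.844), Mars (0.844) and Ccdc88b (0.829), by Pearson's r of log2 CPM centred within genotype. Of these, Cxcr2 encodes the receptor of Cxcl1 and Cxcl2. The ranking is a description over 12 libraries, and 3 of the 8 remained among the top 8 without the library labelled WT IRI replicate 1.

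Some receptors of the members were higher after IRI. Of 16 receptor genes 13 were tested, and 8 were called higher and none lower in WT, with 7 higher and none lower in TG. For this and the following lists, the share of all 19264 genes called higher was 16.8% in WT and 16.4% in TG. Called lower were 2723 of these genes in WT and 2509 in TG. Some listed genes near 0 after NX, among them Cxcr2, Il1r2, Il1rn and Ccl3, reached the count filter only through the IRI libraries. Calls of such genes are given on that condition, and list counts that include them carry no support. Il6ra, the binding subunit for Il6, rose 3.95-fold in WT (2.97 to 11.7 CPM) and 2.52-fold in TG. Il1r1, the signalling receptor of interleukin 1, rose 2.73-fold and 2.37-fold, and its decoy Il1r2 28-fold and 31.5-fold (log2 4.98 in TG, 6.11 without TG NX replicate 0). Tnfrsf1b rose 3.65-fold and 2.42-fold. The gp130 gene Il6st was not called, at 245 CPM after NX and 210 CPM after IRI in WT, and neither were Lifr, Il11ra1 and the monocyte receptor Ccr2.

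Of 10 antagonists and processing enzymes, 5 were called higher and 1 lower in WT and 3 higher and 2 lower in TG. Of all 19264 genes, 2723 were called lower in WT and 2509 in TG, so nothing is read from the few lower calls. Casp4, an inflammatory caspase, rose 6.65-fold in WT and 3.91-fold in TG, and the receptor antagonist Il1rn rose 15.8-fold and 15-fold from traces of 0.0208 to 0.24 CPM in NX. Its TG change of 3.91 on the log2 scale was 3.21 without TG IRI replicate 4 and 5.76 without TG NX replicate 2. Capn2, a calpain, rose 1.7-fold and 1.81-fold. Adam17, the protease that sheds Tnf from the cell surface, fell 1.29-fold and 1.41-fold.

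Among 31 other chemokines 25 were tested, with 11 higher and none lower in WT and 12 higher and 2 lower in TG, a total that fell to 9 without any 1 of the 3 TG NX libraries. Cxcl10, a T cell chemokine, had the smallest p in WT and rose from 1.89 to 17.7 CPM in WT (9.37-fold) and from 1.45 to 13.8 CPM in TG (9.44-fold). Cxcl16 rose 1.82-fold and 1.52-fold and Ccl9 3.53-fold and 2.89-fold, while Ccl3 averaged 0.535 CPM in WT and 0.252 CPM in TG after IRI against 0.0103 and 0.00346 CPM after NX, too few counts for a fold. In the chromosome 5 cluster around Cxcl1 and Cxcl2, Cxcl3, Ppbp and Pf4 were called higher in both genotypes, Cxcl5 was not called and Cxcl15 was not tested. On chromosome 11, Ccl11, 20.4 kb from Ccl2, was called higher in both, while Ccl8 and Ccl12 were not called. Cxcl3, Ppbp and Ccl11 reached the count filter only through the IRI libraries, so their calls are given on that condition. Some reads of Cxcl3 also cannot be told apart from those of Cxcl2.

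Of 32 other cytokines 22 were tested, with 10 higher and 1 lower in WT and 9 higher and 1 lower in TG. Csf1, the macrophage growth factor, rose 5.32-fold in WT (7.07 to 37.6 CPM) and 4.37-fold in TG. Tnfsf15 rose 7.18-fold and 3.65-fold, the gp130 ligand Clcf1 4.83-fold and 5.94-fold, and Il34, a second ligand of the Csf1 receptor, 2.46-fold and 3.04-fold. Osm, a gp130 cytokine 16.5 kb from Lif, was called higher in both genotypes. Osm and Lta were near 0 after NX and reached the count filter only through the IRI libraries. Their calls are given on that condition. Beside Tnf, Lta was called higher in WT (adjusted p = 0.0276) and not in TG (adjusted p = 0.306), a contrast that was itself not called, and Ltb was not called in either.

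Genes that restrain cytokine signals or destabilise cytokine mRNA were mostly higher. Of 16 such genes all were tested, with 13 higher in WT and 12 in TG and none lower, at a median log2 fold change of 2.23 in WT and 2.13 in TG against -0.01 over all genes in each. Socs3, the feedback inhibitor of gp130 signalling, rose 34.9-fold in WT (1.05 to 36.8 CPM) and 34.1-fold in TG. Nfkbiz, a nuclear cofactor of NF-kappa B, rose 17.5-fold and 8.36-fold. Zfp36, which binds cytokine mRNA and promotes its decay, rose 12.3-fold and 8.53-fold, and Tnfaip3, the deubiquitinase A20, 10.9-fold and 6.19-fold. After IRI none of the genes of these lists was called between the genotypes; Nfkbiz differed by -0.61 ± 0.12 (edgeR adjusted p = 0.0895) and Zfp36 by -0.51 ± 0.11 (adjusted p = 0.103).

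Acute phase proteins are the usual downstream products of Il6 in liver, and nothing is read from the number called at 4 hours. Of 12 genes 9 were tested, with 2 higher and 1 lower in WT and 2 higher and none lower in TG, where 16.8% and 16.4% of all genes were called higher. Lcn2, an iron carrier of injured tubules, rose 20.9-fold in WT and 13.1-fold in TG, and Serpina3n 4.62-fold and 12.3-fold (log2 3.62 in TG, 4.20 without TG NX replicate 0). Orm1 was called lower in WT (log2 fold change -6.05, edgeR adjusted p = 0.00691), which rests on WT NX replicate 0, the library with fat genes: without it the change was 4.14 (adjusted p = 0.362). Fga was not called, with log2 fold changes of 0.41 in WT and 0.11 in TG.

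Without injury the genotypes were compared in NX kidneys and in both sexes without surgery. After NX 4 members were tested and none was called (all genes 0.0117%) or stood at an unadjusted p under 0.05 (all genes 6.77%), and Il1b, Il1a, Cxcl1 and Lif each differed by less than 1 on the log2 scale. Without surgery 7 members were tested and none was called, in males (all genes 0.00523%) or in females (0.0418%). At an unadjusted p under 0.05 stood 0 of 7 in females (all genes 9.09%) and 1 of 7 in males (5.22%): Ccl7, at 0.392 CPM in TG against 0.0423 CPM in WT (log2 difference 3.03 ± 1.26, edgeR adjusted p = 0.916). Lif was higher in every TG than every WT male library, as were 4.52% of all genes, and Cxcl1 lower in every TG than every WT female library, as were 8%.

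Between the sexes without surgery none of the 7 tested members was called in WT (all genes 21.3%) or in TG (21.2%). Unadjusted p-values under 0.05 were reached by 2 members in WT (33.4% of all genes), Ccl2 and Il1a, and by 0 in TG (33.2%). In WT, Ccl2 was higher in all 3 females (0.432, 0.649 and 0.668 CPM) than in all 3 males (0.159, 0.164 and 0.307 CPM), as were 18.5% of all genes, with a log2 difference of 1.47 ± 0.55 (edgeR adjusted p = 0.0755). Il1a was lower in all 3 WT females (0.0171, 0.0176 and 0.133 CPM) than in the males (0.226, 0.254 and 0.307 CPM), as were 18.2% of all genes (-2.18 ± 0.81, adjusted p = 0.0747). In TG the differences were -0.16 ± 0.53 for Ccl2 and -1.10 ± 0.75 for Il1a. Lif was lower in every TG female than in every TG male, as were 18.9% of all genes (-0.57 ± 0.44, adjusted p = 0.415).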

How the data were processed

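The authors deposited raw counts per gene in separate tables of 12 unoperated and 18 operated libraries. Reads were trimmed with fastp 0.23.2 and aligned with STAR 2.7.0 to GRCm39, per the submitters' processing notes. Per the file headers, they were counted with featureCounts 2.0.3 in Ensembl release 112 with an added EGFP entry; its options are not legible, and 37.3 to 41.9% of counts were odd, so both reads of a pair may have been counted and bounds against 3 counts may then be too high. Symbols came from GENCODE M21 (90.8% of identifiers matched); all 10 members matched.

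The test across genes was edgeR's quasi-likelihood F test (version 4.0.16, R 4.3.3, two-sided, TMM scaling, filterByExpr, Benjamini-Hochberg over all genes tested). IRI against NX and the interaction used 18 libraries, TG against WT after IRI 12, after NX 6, and the rest the 12 without surgery. SE is the fold change divided by the root of F. CPM and TPM were computed from the deposited counts, TPM with the deposited lengths. Correlations over IRI libraries used 100000 permutations within genotype, on log2 CPM (prior count 2); leaving out the libraries farthest within their genotype, or WT IRI replicate 1, was chosen after seeing the data. The test was checked on simulated data. Named from each pathway list are the 4 genes of smallest p in WT and neighbours of members; genes named beside these (Il6st, Lifr, Il11ra1 and Ccr2) were picked once values were known. The alternatives tried were RLE size factors, no count filter, DESeq2 1.42.0, halved counts, a replicate block, other libraries in the fit and each library left out. The members and lists were chosen with earlier results of these data known. No 2 libraries of a group were copies of each other (48 pairs compared by chi-square). Promoter and transcript sequences come from reference sets of build GRCm38 and were not joined to the counts by position. Of the 8 genes most like the members, 1 is not reported here.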

Additional observations from a re-analysis of the deposited data

Results flagged for a closer look

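Of 20 sets of 6 libraries examined (10 genes in WT and TG after IRI), 4 had a library far from the rest of its group. The cutoff marks about 1 in 20 sets by chance only where values are normally spread. CPM of 6 libraries need not be so spread, and no excess over chance is read from the 4. TG IRI replicate 4 is among them for both Il1b and Il1a. Each is given with the gap to the next library as a share of the group's range. Il1b in WT IRI replicate 5 was 20.2 CPM against 8.29 to 10.7 CPM in the other 5 (gap 0.797), and in TG IRI replicate 4 it was 9.67 CPM against 1.28 to 3.43 CPM (gap 0.744). Il1a in TG IRI replicate 4 was 0.256 CPM against 0 to 0.056 CPM (gap 0.781). Il11 in WT IRI replicate 3 was 3.88 CPM against 0.845 to 1.93 CPM (gap 0.641). The neutrophil marker sum was highest of its genotype in both libraries of high Il1b, at 115 and 52.4 CPM, and its part in these values was not tested.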

How the results depend on the processing

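Over all alternatives run, 431 summary values kept their side of the threshold or stayed within 1.5 times and 39 moved; of values of single genes and lists 1575 kept theirs, 25 reversed, 4 moved, and 3 each gained or lost a call. Members called lower numbered 0, but 1 (Il1a) for IRI against NX in TG with a replicate block and 0 to 1 with a library left out, 0 to 1 (Il1b) for TG against WT after IRI without TG IRI replicate 4, and 0 to 1 for females against males in WT without WT female replicate 2.

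All genes called moved as follows. For the interaction DESeq2 gave 37 and leaving out a library 0 to 1. For TG against WT after IRI there were 43 with no count filter, 346 with DESeq2, 5 with the block, 22 with all 18 libraries, 0 without the 3 IRI libraries named 506 to 508 (an alternative chosen after seeing the data) and 0 to 109 with a library left out, 109 without WT IRI replicate 3 and 0 without any of TG IRI 0, 2, 3 and 5 and WT IRI 0, 4 and 5. After NX there were 127, 46 (DESeq2), 1 (block) and 2 to 15; in males without surgery 15, 14 (DESeq2) and 1 to 2; in females 107, 213 (DESeq2), 14 (halved), 40 (block) and 1 to 22.

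Some values changed sign. With a library left out the interaction ran from -1.02 to 0.148 for Cxcl1, -1.52 to 0.274 for Il1a, -3.15 to 0.252 for Tnf and -0.822 to 0.224 for Lif, and TG against WT after IRI from -0.146 to 0.332 for Cxcl1 and -0.15 to 0.072 for Ccl2. Without libraries 506 to 508 these were -0.18 for Cxcl1, 0.147 for Ccl2 and -0.005 for Fga (TG). With a library left out Fga in TG ran from -0.108 (without TG NX replicate 0) to 0.378 and Orm1 in WT from -7.32 to 4.141 (without WT NX replicate 0); the cause was not tested.

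Same-numbered libraries deviated together with r from -0.0374 to 0.445, and in no pair of groups was every r above 0.1. With only 3 to 6 such pairs between any 2 groups, these values cannot decide whether the numbers pair the libraries. With the replicate block Il1b in TG against WT after IRI was -1.85, and Il1a in TG was called lower after IRI (-2.85, edgeR adjusted p = 0.0468). The call of Il1a is again given on the condition that it reached the count filter through NX. DESeq2 gave no adjusted p for Il1b in TG against WT after IRI. At these depths Tnf, Ccl7 and Il1a, near 1 CPM or lower, are the least precisely measured.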
